A study of Mus musculus with 6 samples.

Results

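The Kruppel-like factors (KLFs) are transcription factors that bind GC-rich and CACCC-type DNA through zinc fingers at the C-terminal end of the protein, and they activate or repress genes according to the cofactors that each member recruits. In the intestine KLF4 is known as a factor of differentiated, non-dividing villus cells, and KLF5 as a factor of dividing crypt cells. The remaining members are known for roles in growth control, metabolism and hormone response. The genes described here are *Klf2*, *Klf3*, *Klf4*, *Klf5*, *Klf6*, *Klf9*, *Klf10*, *Klf13* and *Klf15*, chosen by symbol, and these are 9 of the 20409 features in the count table.

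RNA was sequenced from the villus epithelium of the mouse duodenum in 6 mice, 3 wild-type (WT) and 3 double mutant (DM), each library from a different mouse. The DM mice carried the *Villin*-CreERT2 transgene, which drives a tamoxifen-activated recombinase in the gut epithelium, with *Smad4* fl/fl and the *Ctnnb1* exon 3 fl/wt allele on a C57BL6-enriched background, so that tamoxifen removes SMAD4 and leaves a stabilised β-catenin. They received tamoxifen into the peritoneum at 0.05 g/kg on 4 consecutive days, and villi were compared 7 days after induction. Mice labelled WT were littermates that were not injected, so that tamoxifen and genotype cannot be told apart, and each group held 1 male (mouse 1) and 2 females (mice 2 and 3). Ages were matched between groups but are not given in the sources used here.

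Libraries held 19678507 to 26337318 counts. *Smad4* fell from 120, 180 and 145 CPM (a gene's counts scaled to a common library size) in WT mice 1, 2 and 3 to 26.1, 36.8 and 32.1 in the DM mice, with an adjusted p of 0.000145. *Ctnnb1* as a whole gene does not check the deletion of 1 exon. Enterocyte markers summed to 60070 to 70040 CPM in WT and 41760 to 44250 CPM in DM mice, and all 15 of them passed the filter on low counts. WT mouse 1 stood apart, with 126 CPM over 10 goblet markers against 11690 and 11120 CPM in WT mice 2 and 3, and 7.91 CPM over the Paneth markers against 955 and 1594 CPM. Its stem cell and lymphocyte marker sums were also the lowest of the WT mice. The tests of the members and of every list were repeated without it, and list counts that changed are given beside the results. In bulk RNA, fewer cells of a type and less RNA per cell cannot be told apart.

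Of the 9 KLF genes, 8 passed the filter on low counts, and *Klf2* did not. All levels are CPM scaled by TMM (trimmed mean of M values), and all tests are edgeR's quasi-likelihood test with Benjamini-Hochberg adjustment over the 13346 genes tested, called at an adjusted p under 0.05. By this test 6 of the 8 members fell in the DM villi, beside 17.0% of all genes tested that were lower. In the opposite direction 0 of the 8 were called by edgeR, DESeq2 or limma-voom, and 0 at an unadjusted p under 0.05, beside 19.7% of all genes tested that were higher. The 6 that fell were *Klf4*, *Klf15*, *Klf6*, *Klf3*, *Klf9* and *Klf13*, and *Klf5* and *Klf10* were not called. In the same 6 genes the groups did not overlap, with the 3 DM mice all lower, which held for 24.2% of all genes tested. The fall passed 2 on the log2 scale, the study's own threshold, for *Klf4* and *Klf15*, beside 2.26% of all genes tested. The median log2 fold change over the 8 members was −1.05, against 0.02 over all genes tested.

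**Figure D1:**
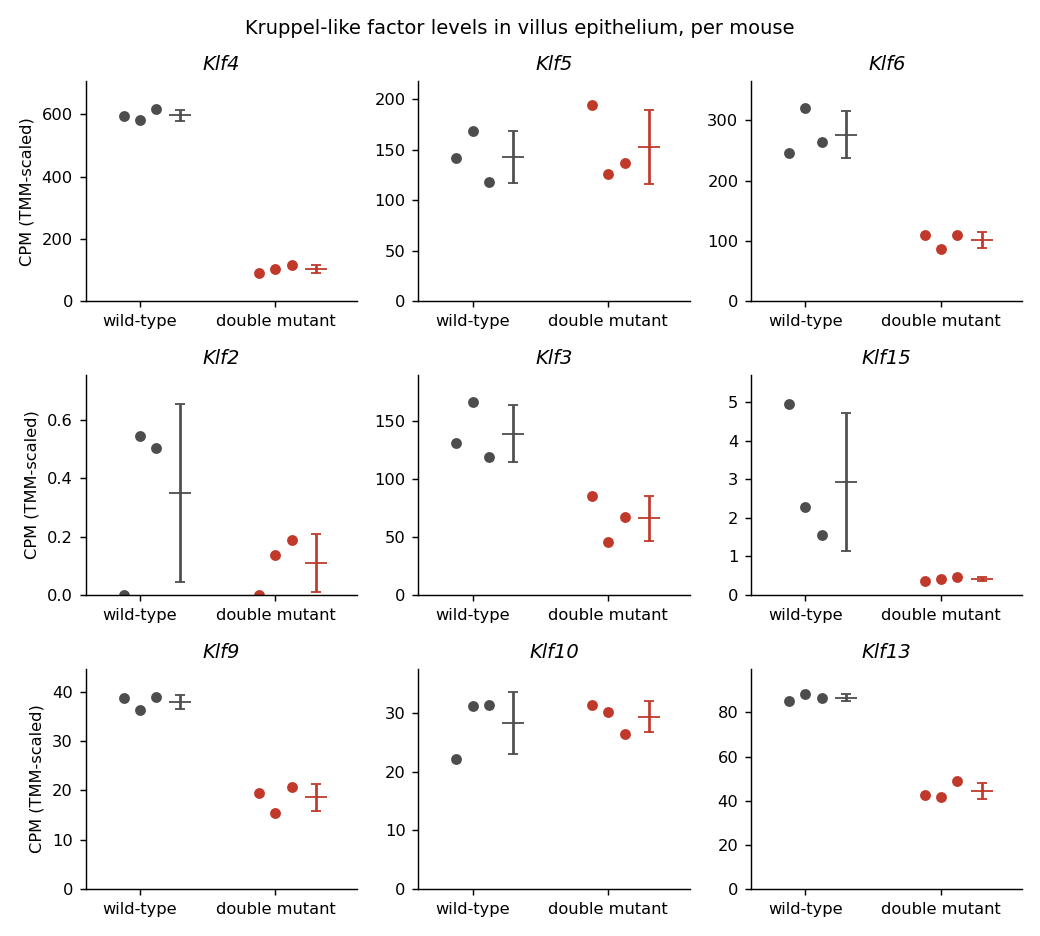
Levels of the 9 KLF genes in CPM (vertical axes, each starting at 0) in WT (grey) and DM (red) mice; points are mice 1, 2 and 3 from left to right, and bars show the mean and SD (n = 3). The groups do not overlap for *Klf4*, *Klf6*, *Klf3*, *Klf15*, *Klf9* and *Klf13*, and overlap for *Klf5*, *Klf10* and *Klf2*.

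*Klf4* (ENSMUSG00000003032, mm9 chr4:55540013-55545347, minus strand) encodes a factor that halts the cell cycle and promotes differentiation in the gut. Its level was 593, 582 and 616 CPM in WT mice 1, 2 and 3. It was 90.2, 103 and 117 CPM in DM mice 1, 2 and 3. The groups were far apart, and the mice of each group lay close together. The mean fell from 597 ± 17.4 to 104 ± 13.5 CPM (SD, n = 3 mice per group), a log2 fold change of −2.53 (SE 0.129, 95% interval −2.82 to −2.24) with an adjusted p of 1.56e-05, or 5.77-fold lower. It ranked 16 by p among all genes tested.

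*Klf6* (ENSMUSG00000000078, mm9 chr13:5860735-5869639, plus strand) encodes a broadly expressed activator known as a growth suppressor. It was measured at 245, 320 and 263 CPM in WT and at 111, 87.0 and 109 CPM in DM mice. Every WT mouse exceeded every DM mouse more than the mice of a group differed among themselves. The log2 fold change was −1.43 (SE 0.146, 95% interval −1.77 to −1.10) with an adjusted p of 0.000304, or 2.7-fold lower.

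*Klf15* (ENSMUSG00000030087, mm9 chr6:90412570-90425232, plus strand) encodes a regulator of amino acid and glucose metabolism that responds to glucocorticoids. It was a low gene in both groups, with 119, 42 and 31 counts in WT mice and 8, 9 and 10 counts in DM mice. In CPM these were 4.96, 2.29 and 1.57 against 0.376, 0.417 and 0.475. WT mouse 1 was the highest by far, and the DM mice were alike. The log2 fold change was −2.79 (SE 0.511, 95% interval −3.95 to −1.62) with an adjusted p of 0.00376. Without WT mouse 1, the log2 fold change was −2.17 with an adjusted p of 0.00372.

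The promoters of these 3 genes are shown because they had the 3 most negative log2 fold changes among the members. Each is the RefSeq sequence (GRCm38.p6) from 250 bases before to 50 after the gene's start, printed in the gene's direction. Capitals mark the letters CACCC or GGGCGG on either strand (GGGTG and CCGCCC on the other), the sequence types that KLF fingers are known to bind, and neighbouring matches can overlap. *Klf4* lies at chr4:55532426-55532725 (minus strand), *Klf6* at chr13:5861239-5861538 (plus strand) and *Klf15* at chr6:90462326-90462625 (plus strand).
Klf4: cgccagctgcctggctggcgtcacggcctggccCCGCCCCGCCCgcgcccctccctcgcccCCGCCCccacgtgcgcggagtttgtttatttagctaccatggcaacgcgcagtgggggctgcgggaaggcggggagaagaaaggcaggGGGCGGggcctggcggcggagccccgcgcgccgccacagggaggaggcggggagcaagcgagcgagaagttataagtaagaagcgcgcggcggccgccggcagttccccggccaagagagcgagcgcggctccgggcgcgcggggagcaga
Klf6: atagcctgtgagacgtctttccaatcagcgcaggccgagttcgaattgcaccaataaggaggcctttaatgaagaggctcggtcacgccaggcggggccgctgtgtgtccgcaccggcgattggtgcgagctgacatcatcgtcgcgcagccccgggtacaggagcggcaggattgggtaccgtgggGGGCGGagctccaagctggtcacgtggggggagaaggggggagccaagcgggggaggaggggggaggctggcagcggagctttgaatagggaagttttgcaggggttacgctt
Klf15: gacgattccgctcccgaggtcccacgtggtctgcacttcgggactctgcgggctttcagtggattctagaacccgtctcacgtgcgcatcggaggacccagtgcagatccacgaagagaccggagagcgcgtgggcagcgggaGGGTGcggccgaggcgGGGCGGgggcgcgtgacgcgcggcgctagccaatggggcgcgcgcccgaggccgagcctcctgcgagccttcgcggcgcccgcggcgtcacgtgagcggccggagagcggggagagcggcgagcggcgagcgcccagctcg

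In these windows *Klf4* held 4 matches to GGGCGG, 2 of them overlapping by a base, and *Klf6* held 1. *Klf15* held 1 match to each of CACCC and GGGCGG. RefSeq promoters were found for 7 of the 9 members, all except *Klf5* and *Klf10*. GGGCGG was present in 6 of the 7, against 35.7% of all 32851 promoters, and CACCC in 5 of the 7, against 57.5%. GC content was 74.3% for *Klf4*, 63.0% for *Klf6* and 73.3% for *Klf15*, against a median of 52.7% over all promoters. Letters typical of SMAD sites were also searched on both strands, where CAGAC was found in 2 of the 7 (49.6% of all promoters) and GGCGCC in 2 of the 7 (11.9%). Of the letters typical of TCF sites, CTTTGAT was found in 0 of the 7 (3.73% of all) and CTTTGAA in 1 of the 7, *Klf6* (5.14% of all). A match describes the letters alone.

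*Klf3* (ENSMUSG00000029178, mm9 chr5:65194628-65221368, plus strand) encodes a repressor that recruits CtBP corepressors. Its level was 131, 167 and 119 CPM in WT mice and 85.0, 46.2 and 66.9 CPM in DM mice. The DM mice differed among themselves more than for most members, yet the highest of them stayed below the lowest WT mouse. The log2 fold change was −1.07 (SE 0.225, 95% interval −1.59 to −0.557) with an adjusted p of 0.00746.

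*Klf9* (ENSMUSG00000033863, mm9 chr19:23215716-23241401, plus strand) and *Klf13* (ENSMUSG00000052040, mm9 chr7:71031237-71083801, minus strand) encode related proteins that recruit SIN3 corepressors. *Klf9*, which responds to glucocorticoid and thyroid hormones, was at 38.7, 36.3 and 38.9 CPM in WT and 19.5, 15.5 and 20.7 CPM in DM mice. Its log2 fold change was −1.03 (SE 0.139, 95% interval −1.35 to −0.717) with an adjusted p of 0.000941. The miRNA gene *Mir1192* overlaps *Klf9* on the same strand and held at most 12 counts in any library. *Klf13* was at 85.3, 88.4 and 86.6 CPM in WT and 42.6, 41.8 and 48.8 CPM in DM mice. Its log2 fold change was −0.97 (SE 0.108, 95% interval −1.21 to −0.72) with an adjusted p of 0.000438. For both genes the WT mice lay close together, and the groups stood well apart.

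*Klf5* (ENSMUSG00000005148, mm9 chr14:99697910-99712624, plus strand) encodes the crypt-associated factor that promotes cell division. It was at 142, 169 and 118 CPM in WT and 194, 126 and 137 CPM in DM mice. The groups overlapped, and DM mouse 1 was the highest of all 6. The log2 fold change was 0.09 (SE 0.193, 95% interval −0.346 to 0.534) with an adjusted p of 0.735, and the interval allows a change of either sign. It was negative without DM mouse 1 (−0.11) and without WT mouse 3 (−0.03).

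*Klf10* (ENSMUSG00000037465, mm9 chr15:38221219-38230464, minus strand) encodes an early response factor that TGF-β induces. It was at 22.1, 31.2 and 31.4 CPM in WT and 31.4, 30.2 and 26.4 CPM in DM mice. WT mouse 1 was the lowest, and the other 5 mice lay together. The log2 fold change was 0.06 (SE 0.162, 95% interval −0.314 to 0.425) with an adjusted p of 0.815, and it was −0.09 without WT mouse 1.

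*Klf2* (ENSMUSG00000055148, mm9 chr8:74842932-74845555, plus strand) encodes a factor known from endothelial cells and resting lymphocytes. It held 0, 10 and 10 counts in WT and 0, 3 and 4 counts in DM mice. Both libraries with 0 counts were those of the males, and 3 counts, the limit that a count of 0 allows, correspond there to 0.125 and 0.141 CPM. Lymphocyte markers summed to 101, 205 and 196 CPM in WT and 88.8, 97.5 and 132 CPM in DM mice, lowest in the male of each group, and their part in the *Klf2* counts was not tested. With no filter the log2 fold change was −1.58 with an adjusted p of 0.41, so that a difference was not detectable at this depth.

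**Figure D2:**
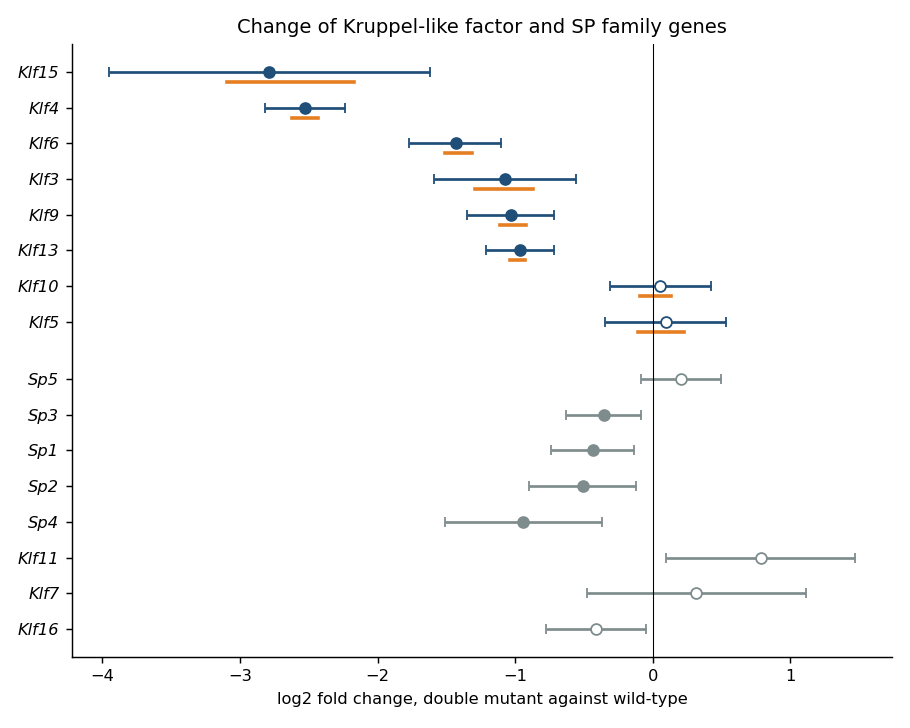
Log2 fold changes (horizontal axis, DM against WT) of the 8 tested KLF members (blue) and of other tested KLF and SP family genes (grey), with bars for the 95% interval and filled points for an adjusted p under 0.05. Orange lines, drawn for the members alone, give the range when each mouse is left out in turn. Among the members *Klf15* has the widest interval, −3.95 to −1.62.

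To compare levels between genes, CPM was divided by the length of each gene's exons in kilobases. In WT villi the order was *Klf4* (195 ± 5.69 CPM per kilobase, SD, n = 3), *Klf5* (83.1 ± 14.9), *Klf6* (65.5 ± 9.27), *Klf3* (53.2 ± 9.37), *Klf13* (13.2 ± 0.239), *Klf9* (11.6 ± 0.448), *Klf10* (7.39 ± 1.39), *Klf15* (1.16 ± 0.707) and *Klf2* (0.189 ± 0.164). Without WT mouse 1, *Klf15* stood at 0.762 and *Klf2* at 0.284 CPM per kilobase, and the order was the same. The ranges over 3 mice overlapped between *Klf5* and *Klf6* and between *Klf6* and *Klf3*, and not between the other neighbours. *Klf4* led in each of the 3 WT mice.

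In DM villi *Klf5* led in each of the 3 mice, at 88.7 ± 21.3 CPM per kilobase, ahead of *Klf4* at 33.8 ± 4.42. The next levels were *Klf3* at 25.3 ± 7.44 and *Klf6* at 24.3 ± 3.15, which overlapped each other, and *Klf3* also overlapped *Klf4*. *Klf10* followed at 7.68 ± 0.687, overlapping *Klf13* at 6.73 ± 0.575, with *Klf9* at 5.69 ± 0.831 and *Klf15* at 0.167 ± 0.0197 below. *Klf2*, at 0.0594 ± 0.0532, was again the lowest. The 9 levels summed to 430 ± 27.4 CPM per kilobase in WT and 192 ± 28.8 in DM mice, and *Klf4* made up 45.3% of the sum in WT and 17.6% in DM villi. *Klf5* made up 19.3% and 46.1%.

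**Figure D3:**
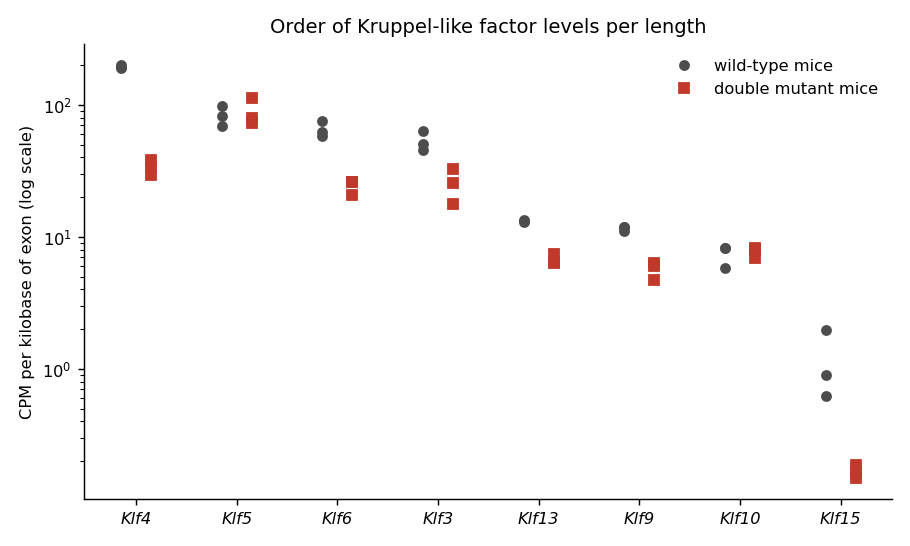
Levels per kilobase of exon (log axis) of 8 KLF genes in each WT mouse (circles) and DM mouse (squares), ordered by the WT mean; *Klf2*, with 0 counts in 2 mice, is left out. *Klf4* is highest in WT (195 on average) and *Klf5* in DM mice (88.7).

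The ratio of *Klf5* to *Klf4* within a mouse does not depend on library scaling. Per kilobase, *Klf5* stood at 0.426, 0.516 and 0.340 times *Klf4* in WT mice and at 3.83, 2.18 and 2.08 times *Klf4* in DM mice. The ratio was below 1 in all WT mice and above 1 in all DM mice. On the log2 scale its mean was −1.25 ± 0.302 and 1.37 ± 0.491 (SD, n = 3 per group), a difference of 2.62, with p = 0.1 by an exact two-sided permutation test, the smallest value that 3 mice against 3 allow. The genes themselves had log2 fold changes of −2.53 (*Klf4*) and 0.09 (*Klf5*), so that nearly all of the difference lay in *Klf4*.

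*Klf4* is also expressed in goblet cells, so its level is given beside their markers. WT mouse 1 had 593 CPM of *Klf4*, between the 582 and 616 CPM of mice 2 and 3, with goblet markers at 126 CPM. The DM mice had 4751 to 5143 CPM of goblet markers and 90.2 to 117 CPM of *Klf4*. Of the 10 goblet markers 9 were not called, and *Clca1* rose from 3.83 ± 1.74 to 10.7 ± 1.79 CPM (adjusted p 0.00679). Without WT mouse 1, 6 of the 10 goblet markers were lower and 1 higher, with a median of −0.53, and the log2 fold change of *Klf4* was −2.53.

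**Figure D4:**
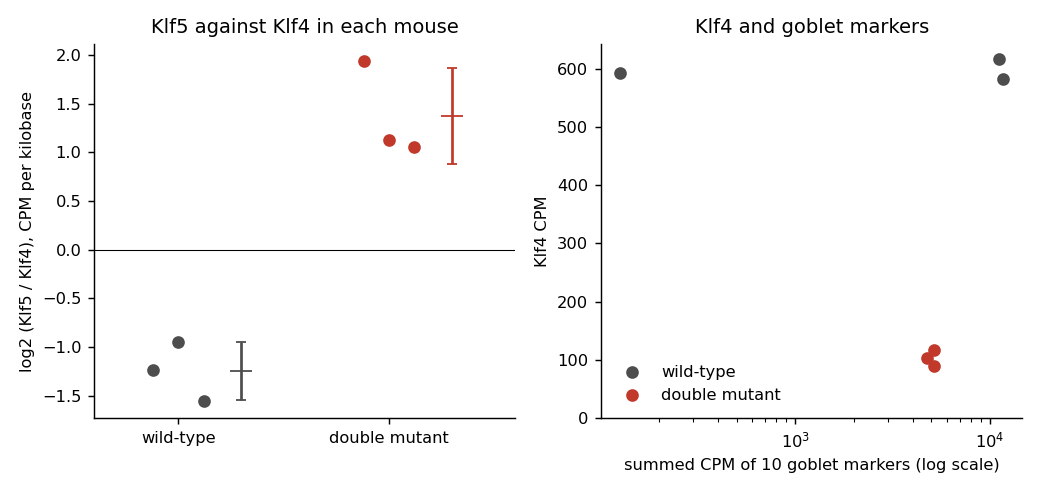
Left, log2 ratio of *Klf5* to *Klf4* per kilobase in each WT (grey) and DM (red) mouse, with mean and SD (n = 3): all WT mice lie below 0 and all DM mice above it. Right, *Klf4* CPM against the summed CPM of 10 goblet markers (log axis): the WT mouse at 126 CPM of goblet markers has 593 CPM of *Klf4*.

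The genes whose profile over the 6 mice was most like that of *Klf4* were *Fyb* and *Avil*, with root mean square differences of 0.146 and 0.156 in log2 CPM (prior count of 2) after centring each gene. *Rps6ka2* came next (0.172), but its DM mean of 0.0786 CPM lay below the level of 3 counts, where the prior count sets the log2 value, so its likeness to *Klf4* is not interpretable. For *Klf5* they were *Pcm1* (0.0394), *Alg10b* (0.061) and *Vps13a* (0.0663).

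The proteins share their DNA-binding end. Translations of the annotated transcripts gave 3 zinc fingers of the C2H2 type in a stretch of 81 residues in each of the 9 members, within proteins of 244 (*Klf9*) to 483 (*Klf4*) residues. Over that stretch KLF2 and KLF4 were the closest pair, at 91.4% identity, and KLF6 and KLF9 the most distant, at 60.5%. KLF4 and KLF5 were 82.7% identical. KLF9 and KLF13 were 81.5% identical. KLF15 shared 63.0% to 67.9% with the other members, and 1 to 3 residues followed the last finger in KLF2 to KLF6, against 13 in KLF15, 19 in KLF9, 29 in KLF10 and 39 in KLF13.

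The rest of the family was tested in the same fit. Of the 8 other KLF genes, 6 were in the table and 3 were tested. Their values were a log2 fold change of 0.78 (adjusted p 0.0715) for *Klf11*, 0.31 (0.515) for *Klf7* and −0.41 (0.0728) for *Klf16*. *Klf7* was at 0.13 (0.789) without WT mouse 1. By edgeR 0 of these 3 were called, as by DESeq2 and limma-voom, and 1 in each direction had an unadjusted p under 0.05. Of the SP genes, relatives that bind the same GC-rich letters, 4 of the 5 tested fell, beside 17.0% of all genes tested. The 4 were *Sp4* (−0.94, adjusted p 0.0187), *Sp2* (−0.51, 0.0455), *Sp1* (−0.44, 0.0317) and *Sp3* (−0.36, 0.0461), and *Sp5* was at 0.20 (0.242). Limma-voom called 3 of them, and without WT mouse 1 edgeR also called 3, with *Sp3* at an adjusted p of 0.0738. The median log2 fold change of the 5 was −0.44.

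Lists of linked genes are read beside the 17.0% of all genes tested that were lower, the 19.7% that were higher and their median of 0.02. Of 18 cofactors and ubiquitin ligases that act with KLF proteins, 3 fell and 3 rose, with a median log2 fold change of −0.04 (−0.06 without WT mouse 1, with the same counts). *Fhl2*, a LIM-domain cofactor, fell from 68.9 ± 17.1 to 30.3 ± 6.51 CPM (−1.19 on the log2 scale, adjusted p 0.00347). *Set*, which binds histones and blocks their acetylation, rose from 38.5 ± 1.99 to 92.8 ± 11.8 CPM (1.27, adjusted p 0.000272).

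Of 6 cytostatic and absorptive genes linked to KLF4, 5 fell, with a median of −0.91 on the log2 scale. The list shares 3 of its 6 genes, *Alpi*, *Krt20* and *Vil1*, with the enterocyte markers. *Cdkn1a*, the p21 inhibitor of cell-cycle kinases, fell from 335 ± 43.8 to 88.3 ± 13.9 CPM (−1.92, adjusted p 0.000114). Of 9 proliferation genes linked to KLF5, 7 rose and 1 fell, with a median of 1.71. *Myc*, a growth regulator, rose from 1.62 ± 1.08 to 18.4 ± 2.73 CPM (3.53, adjusted p 0.00234), and *Egfr*, a growth factor receptor, fell from 21.5 ± 6.71 to 12.3 ± 2.69 CPM (−0.81, adjusted p 0.0436), although limma-voom called 0 of the 9 lower. *Klf5* itself was not called. Stem cell markers also rose, 9 of 12, led by *Prom1* (3.11, adjusted p 5.86e-05). Without WT mouse 1 the counts were again 7 higher and 1 lower for the proliferation genes and 9 higher for the stem cell markers.

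Villus-tip genes, which mark the oldest cells of the villus, fell in 6 of the 7 tested, with a median of −3.27, and *Nt5e*, an ectoenzyme that makes adenosine, fell from 129 ± 18.2 to 1.65 ± 0.57 CPM (−6.29, adjusted p 7.06e-06). *Egfr*, also in the proliferation list, is 1 of these 6, its groups overlapped, and limma-voom called 5 of the 7. Of 15 enterocyte markers, 10 fell and 1 rose, and without WT mouse 1 the counts were 9 lower and 2 higher. *Lct*, the lactase gene, fell (−2.04, adjusted p 0.000704), and *Fabp1*, a fatty acid carrier, rose (0.82, adjusted p 0.0332). The 6 KLF genes fell in the same DM mice as most genes of these lists, and a link between them was not tested.

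KLF9 and KLF15 are linked to glucocorticoids and the clock, and KLF6 and KLF10 to early responses. Of 8 tested glucocorticoid response genes, 2 fell and 1 rose, with a median of −0.30. *Sgk1*, a kinase, fell (−2.66, adjusted p 0.00476), and *Fkbp5*, a chaperone of the receptor, rose (2.05, adjusted p 0.0102). Without WT mouse 1, 3 were lower and 0 higher, with a median of −0.49 and *Fkbp5* at 1.93 and an adjusted p of 0.0546. Of 15 clock genes, 7 fell and 1 rose, with a median of −0.52, and without WT mouse 1 the counts were 6 lower and 1 higher. *Hlf*, a clock output factor, fell (−3.37, adjusted p 0.00153), and *Bhlhe40*, a clock repressor, rose (0.74, adjusted p 0.00128). Of 13 tested immediate-early genes, 8 fell, with a median of −0.62, led by *Fosb* (−2.15, adjusted p 0.00215). Of the 13, 9 were lower and 1 was higher without WT mouse 1.

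**Figure D5:**
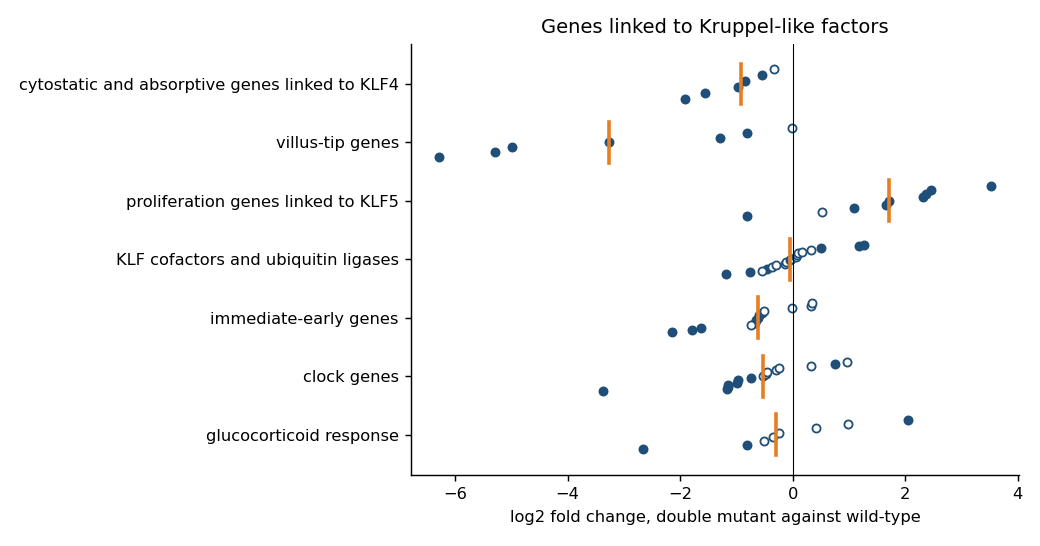
Log2 fold changes (horizontal axis, DM against WT) of the tested genes in 7 lists linked to KLF factors; filled points have an adjusted p under 0.05, and orange bars are list medians. Villus-tip genes lie furthest to the left (median −3.27) and the proliferation genes furthest to the right (median 1.71).

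Of 7 Paneth markers tested (median log2 fold change −1.31), edgeR called 0, with 0 at an unadjusted p under 0.05, and DESeq2 called 1 lower. With WT mouse 1 left out, 8 Paneth markers were tested, 3 of them lower and 2 higher by edgeR, with a median of −2.09. Of 11 lymphocyte markers tested 2 fell by edgeR, a share near the 17.0% of all genes tested that were lower. *Ptprc* had the larger fall of the 2 (−1.29, adjusted p 0.00545), and the median of the 11 was −0.91. DESeq2 called 6 lower, 6 had an unadjusted p under 0.05 by edgeR, and 9 were lower by edgeR without WT mouse 1. Endothelial markers summed to 2.37 to 2.77 CPM in WT and 3.06 to 3.33 CPM in DM mice. *Plvap*, an endothelial gene, went the other way, from 25, 14 and 12 counts in WT mice to 0 in all 3 DM mice (adjusted p 0.00293 by edgeR). Stromal markers summed to at most 6.76 CPM, myeloid markers to at most 8.78 CPM and erythroid markers to at most 0.751 CPM in any mouse. Their part in the KLF values was not tested.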

How the data were processed

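Villus epithelium of 3 wild-type and 3 double mutant mice was sequenced from polyA-enriched RNA. The authors used HISAT2 for alignment to mm9 and featureCounts for counting by gene, and deposited the raw counts, not normalized, with 1 column per mouse. The strand setting, annotation release and treatment of multimapping reads are not given in the sources used here. Methods and labels differ on the EDTA strength used to free the villi.

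Of 20409 features, 20032 had an identifier in GENCODE's mm9 annotation, the source of symbols, positions and exon lengths. Genes were kept by filterByExpr (13346), scaled by TMM and tested with edgeR 4.0.16 (glmQLFit robust, glmQLFTest) in R 4.3.3, with Benjamini-Hochberg adjustment. SE is the log2 fold change over the square root of F. DESeq2 1.42.0 and limma 3.58.1 (voom), other scalings and filters, sex or replicate terms and leaving out each mouse were alternatives, and females alone, and the gene lists without wild-type mouse 1, were added after seeing the data. The scripts were tested on simulated data. Totals of 19678507 to 26337318 counts put 3 counts at 0.125 to 0.163 CPM, and these limits cover counting error only.

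The members and gene lists were chosen with earlier results of these data known. All 9 members are named, with every tested gene of the other KLF and SP lists, the largest called change in each direction of each other list, and the 3 genes nearest to *Klf4* and to *Klf5*. Of the villus-tip list, 8 of 9 genes were matched. Other lists with unmatched genes were clock (15 of 16 matched), SP (6 of 9) and other KLF (6 of 8). Among lists of other cells these were stromal (7 of 9), endothelial (5 of 9) and erythroid (2 of 8), so their sums cover the matched genes only. Promoters are from RefSeq (GRCm38.p6), whose coordinates were not converted.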

Additional observations from a re-analysis of the deposited data

How the results depend on the processing

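The same 6 KLF genes were called lower, and 0 higher, in all 15 alternative fits: DESeq2, limma-voom, other size factors, no or another filter, sex as covariate, the replicate block, females alone and each mouse left out. Asking for a log2 fold change past 2 left 2 lower, and past 1 left 5. Over all genes, scaling by library size alone gave 1425 lower and 3732 higher (72.4% of calls higher, against 53.7%, 2273 lower and 2632 higher), with the median of all genes at 0.22 in place of 0.02. Past 1 the counts were 832 lower and 1454 higher, and past 2 they were 302 lower and 406 higher. With each mouse left out, calls over all genes ran from 1630 to 2361 lower and 1812 to 2783 higher.

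The 2 members that were not called changed sign: *Klf5* ran from −0.11 to 0.23 with each mouse left out, negative without double mutant mouse 1 (−0.11) and wild-type mouse 3 (−0.03), and was −0.12 in females alone. *Klf10* ran from −0.09 to 0.13, negative without wild-type mouse 1 (−0.0946), and was −0.14 in females alone. The cause was not tested. *Klf4* ran from −2.62 to −2.43 and *Klf15* from −3.09 to −2.17 with each mouse left out. The difference in the ratio of *Klf5* to *Klf4* ran from 2.34 to 2.78, and the order of levels held with the longest transcript as length and without wild-type mouse 1.

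Across genes, the deviations of same-numbered mice from their group means correlated at r of 0.02, −0.11 and 0.01. The male pair was no closer, at 0.0224, than wild-type mouse 2 with double mutant mouse 1, at 0.0712. Such a check cannot decide whether the numbers pair the mice, as it does not pick out the known match by sex. With the replicate block, *Klf4* was at −2.54 and *Klf15* at −2.63, and calls over all genes were 1750 lower and 2084 higher. With 3 mice per group, small changes are not detectable, as the intervals of *Klf5* and *Klf10* show, and *Klf2* is limited by its counts.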
